A study of Mus musculus with 22 samples.

Results

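Proteasome subunit genes were followed in the kidneys of mice given cisplatin, KW6002, both or neither. The members were the genes whose mouse symbol joins Psm, a letter from a to e and a number, other than Psmb8 and Psmb9, with at least 10 counts in at least 5 of the 22 libraries. Of 43 genes with such a symbol, 2 were left out by name, and Psmb11, the thymus subunit, stayed under the minimum, so that 40 of the 32858 genes in the count table were members. The study asked whether istradefylline (KW6002), an adenosine receptor antagonist, lessens the kidney toxicity of cisplatin, a platinum drug that crosslinks DNA. Whole-kidney RNA of 22 male C57Bl6/J mice aged 8 to 10 weeks was read by polyA RNA-Seq, with 1 library for each mouse. The vehicle group (n = 5) received the carrier of KW6002, a mix of DMSO, cremophor and saline. The KW6002 group (n = 6) received 3 mg/kg KW6002 daily from day -5 to day 7. The cisplatin group (n = 5) received 6 daily doses of 3 mg/kg cisplatin, and the cotreated group (n = 6) received both drugs, all by intraperitoneal injection. Kidneys were taken 72 hours after the last cisplatin injection.

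The proteasome is the barrel-shaped protease that degrades proteins tagged with ubiquitin. Its core is a stack of rings, with alpha subunits outside and beta subunits inside, and some beta subunits carry the cutting sites. A cap opens the barrel: ATPases in the base unfold the substrate, and the lid removes the ubiquitin. Other activators can take the place of the cap, and immune catalytic subunits, induced by interferon-gamma, can take the place of the usual ones. The transcription factor NFE2L1 raises subunit genes when proteasome capacity falls short, and antioxidant response elements are the sites that NFE2L1 and NFE2L2 bind.

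RefSeq promoters (GRCm38.p6, 250 bases before to 50 after the annotated start) were found for 33 of the 40 members and searched for the core of the antioxidant response element. The core was searched on both strands as TGACNNNGC or TGAGNNNGC. It lay in 15 of the 33 promoters (45.5%), compared with 30.8% of the 27025 genes with a promoter of this length. The stretches of 6 of the 15 are shown as examples from the core and the base chaperones, and Psma6, Psmc2 and Psme4 are among the others that held one. Capitals mark the core, which is read from 5′ to 3′ on the strand given, with up to 10 bases on each side.
Psmb5, chr14:54618024-54618052, minus strand: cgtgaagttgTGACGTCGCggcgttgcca
Psmb6, chr11:70525338-70525366, plus strand: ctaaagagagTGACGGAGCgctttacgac
Psma7, chr2:180042415-180042433, minus strand: gcgctgacggTGAGTGTGC
Psmd5, chr2:34871097-34871125, plus strand: actaagagacTGAGACCGCccaggggatc
Psmb3, chr11:97703414-97703442, plus strand: gcgttgacccTGAGAAAGCcagagccggt
Psmd9, chr5:123228149-123228177, plus strand: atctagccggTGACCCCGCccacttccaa

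The first base of the core lay 47 bases before the start of Psmb5, 9 before that of Psmb6, 145 before that of Psmd5, 10 before that of Psmb3 and 31 before that of Psmd9, and 42 bases after that of Psma7. These are RefSeq starts, and those of Psmb3, Psmb5, Psmd5 and Psmd9 lie inside the longer GENCODE genes, that of Psmd9 the farthest. A gene with several annotated starts was counted once. The longer form, TGACNNNGC followed by A, which overlaps the first core, lay in 2 promoters, those of Psmd12 and Psme4 (6.06% of the 33, compared with 3.45% of all genes). CCAAT lay in 12 (36.4%, compared with 41.1%). Psmd10, the member with the largest rise after cisplatin, held no antioxidant response element core in its window but held CCAAT at 3 places, of which the one nearest the start is shown with CCAAT in capitals.
Psmd10, chrX:140956721-140956745, plus strand: gttccggcgaCCAATcaaagtacta

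A further letter pattern, TTTC and TTTC with any 2 bases between, of the kind bound by interferon regulatory factors, was looked for on both strands after the values were known. It lay in 4 of the 33 promoters (12.1%, compared with 3.99% of all genes), those of Psme1, Psmd4, Psmb3 and Psmd9, and not in the window of Psmb10. The pattern TTCNNNGAA was searched in the same way and lay in 1 of the 33 (3.03%, compared with 9.55% of all genes). The stretches of the activator subunit Psme1 and of the ubiquitin receptor Psmd4 are shown with the pattern in capitals. These matches describe letters in a window and no factor's binding was measured.
Psme1, chr14:55578493-55578522, plus strand: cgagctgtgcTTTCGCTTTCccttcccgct
Psmd4, chr3:95042675-95042704, minus strand: ataaccaaccTTTCCATTTCtgtggcgcct

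The libraries held between 26471762 and 40510754 counts. Labels of 3 vehicle and 3 KW6002 mice carried numbers in the 300s and those of the other 16 mice numbers in the 500s, so both cisplatin groups lay within the 500s. Markers of the proximal tubule (5 of 5 detected in every group) summed to between 13587 and 14583 CPM (counts scaled by library size and TMM factor) in vehicle kidneys, between 13150 and 14225 with KW6002, between 1396 and 2536 with cisplatin, and between 5087 and 7924 with cotreatment. Slc34a1 was the largest part in vehicle kidneys (median 7546 CPM). With cotreatment 4 of the 5 were higher than with cisplatin, and Slc22a6 was not called (log2 fold change of 0.14, edgeR adjusted p = 0.236). Markers of fat summed to between 153 and 1368 CPM in vehicle kidneys, between 65.1 and 593 with KW6002, between 408 and 822 with cisplatin and between 40.8 and 374 with cotreatment, and 4 of the 5 were lower with cotreatment than with cisplatin (median log2 fold change of -1.96). The injury markers Havcr1 and Lcn2 summed to between 5.29 and 7.02, between 4.79 and 14.1, between 1126 and 2136, and between 299 and 653 CPM in the same order. Endothelial markers summed to between 314 and 336, between 310.3 and 339.6, between 253 and 331, and between 254 and 277 CPM in that order. In whole tissue, fewer cells of a type and less RNA per cell cannot be told apart, and the part of the cell makeup in the results on proteasome genes was not tested.

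The plot of levels per length ranks the members in vehicle kidney by CPM per kilobase of merged exons. The alpha subunit Psma6 stood highest at 76.5 ± 1.30 (SD, n = 5), the catalytic subunit Psmb6 was next at 74.5 ± 3.60, and Psma8, the alpha subunit of testis, was last at 0.0788 ± 0.0382. Psma8 had 1 to 13 counts in a library and did not pass the filter of the test, so 39 members were tested. In 30 of the 39 steps down this order the vehicle libraries of the neighbours overlapped. Levels of 23 ring, base and lid subunits that share under 5% of their 50-base words with other loci had a median of 32.4 and ranged from 20.1 to 76.5. The 8 that share at least 5% had a median of 17.6 and ranged from 4.49 to 50.4, among them Psma3 at 4.49, Psma5 at 7.93 and Psmb3 at 8.57. The share of such words was 49.1% for Psma5, 47.4% for Psmb5 and 28.3% for Psme2. Reads that fit several loci were left out by the authors, and the part of this in the levels was not tested. The order depended on the length used. Per kilobase of the longest transcript Psmb6 was at rank 1 (144), Psma6 at rank 4 (90.5), and Psma1 moved from rank 20 to rank 5.

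**Figure D1:**
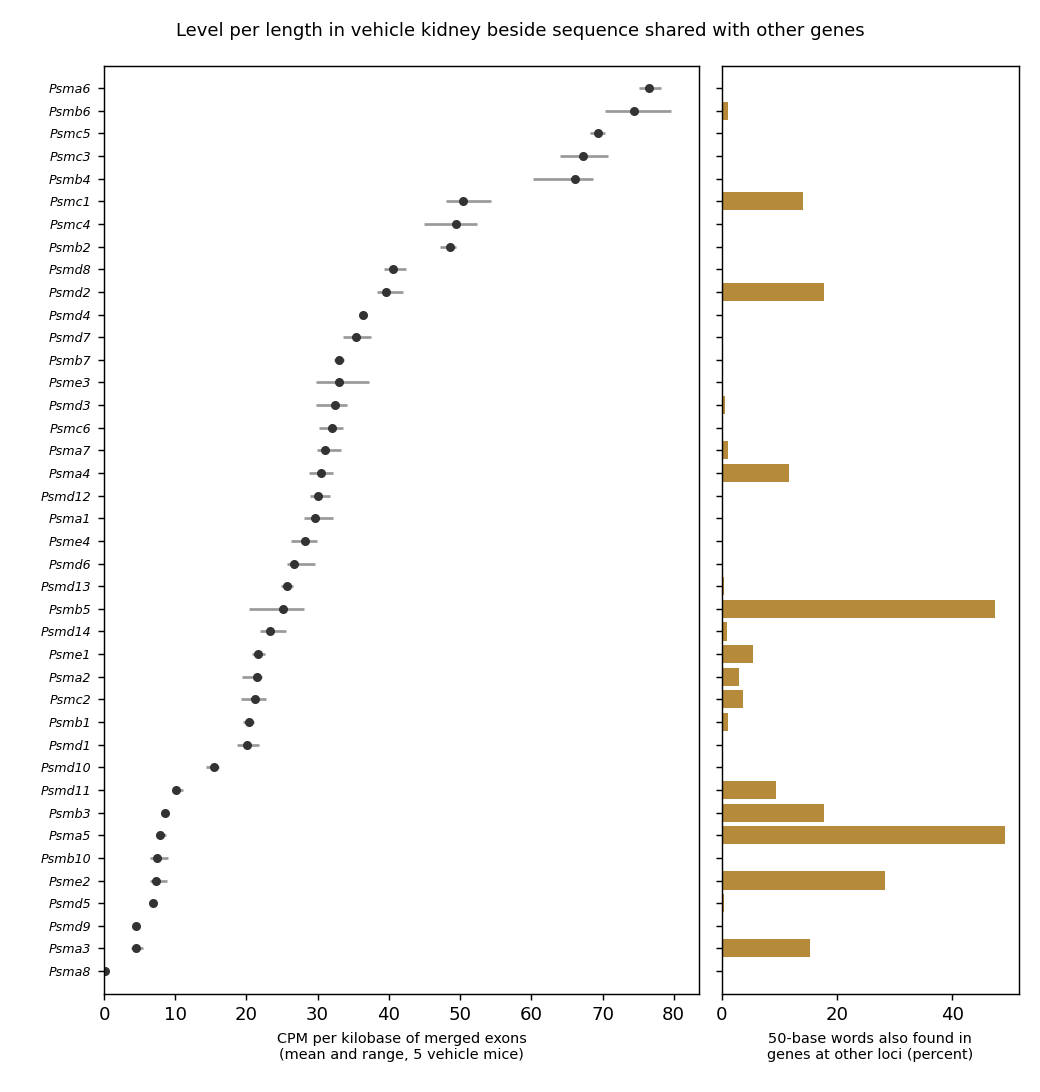
Level of each of the 40 members in the 5 vehicle kidneys, as CPM per kilobase of merged exons (points, means; lines, range), beside the percentage of the gene's 50-base words also found in genes at other loci (bars). Psma6 stands highest at 76.5 and Psma8 lowest at 0.0788, and Psma5 shares the most words (49.1%).

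Subchronic cisplatin raised more proteasome genes than it lowered. Of the 39 members tested, 20 rose and 5 fell in cisplatin-treated compared with vehicle-treated mice, while 34.6% of all 17131 genes tested rose and 35.9% fell (edgeR quasi-likelihood test, Benjamini-Hochberg adjusted p under 0.05). The largest rises were those of the base chaperone Psmd10, the lid subunit Psmd11 and the immune catalytic subunit Psmb10, and the falls were those of Psma3, Psmd6, Psmc2, Psmd3 and Psmc4. The median log2 fold change of the members was 0.12, compared with -0.01 over all genes tested. With library size as the only scaling, the median of all genes was 0.20 and that of the members 0.34, a difference of 0.13 in both cases; 32 members then rose and 0 fell, at 47.6% and 24.8% of all genes, and Psmc4 stood at 0.05. Within the 500s the median was 0.11 with cisplatin and 0.14 with cotreatment compared with vehicle. Libraries of the groups did not overlap for 16 members that were higher and 2 that were lower with cisplatin, compared with 27.4% and 27.9% of all genes.

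The changes were small for most members. In 35 of the 39 the log2 fold change lay within 0.5 of 0, and the SD of the fold changes over the members was 0.31. Among the 9024 genes with levels in the members' range, 63.1% lay within 0.5, the SD was 0.95, 37.6% rose and 38.4% fell. Only Psmd10 passed the study's stricter rule, adjusted p under 0.01 and a log2 fold change beyond 1, as did 12.1% of all genes in each direction. The summed level of the members was 3384 ± 94.4 CPM in vehicle kidneys and 3667 ± 133 CPM with cisplatin (SD, n = 5 and 5).

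Cotreatment with KW6002 moved members both ways from their levels with cisplatin alone. In cotreated compared with cisplatin-treated mice, 15 members rose and 7 fell, compared with 28.6% and 27.2% of all genes, and the median log2 fold change was -0.01, compared with 0.01 over all genes. Among the 9024 genes with levels in the members' range, 36.1% rose and 27.5% fell. None of the 39 passed the stricter rule in either direction, compared with 4.65% and 5.66% of all genes. At an unadjusted p under 0.05 there were 25 members, compared with 10367 of all 17131 genes. With library size as the only scaling, 11 rose and 12 fell, compared with 23.9% and 31.7% of all genes. Libraries did not overlap for 9 members that were higher and 1 that was lower with cotreatment (19.3% and 18.5% of all genes). In cotreated compared with vehicle-treated mice, 24 members rose and 0 fell, compared with 29.8% and 29.9% of all genes, with a median of 0.16. Genes with levels in the members' range rose in 36.9% and fell in 28.2% of cases here. Of the members below vehicle, 2 had an unadjusted p under 0.05. In both directions together there were 27 such members, compared with 10861 of all 17131 genes. DESeq2 called 24 members higher and 0 lower (23.0% and 24.0% of genes). With library size as the only scaling, 35 rose and 0 fell, compared with 43.2% and 20.6% of all genes, at a median of 0.32 for the members and 0.16 for all genes. Libraries did not overlap for 17 members that were higher and 0 that were lower (18.9% and 18.5% of all genes). The summed level of the members was 3742 ± 107 CPM with cotreatment (SD, n = 6). These comparisons share libraries and are not independent of each other.

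With KW6002 alone 1 member was called, and the call was lost under 5 of 9 other settings and without 8 of the 11 libraries in turn. Psmd5 rose and no other member was called in KW6002-treated compared with vehicle-treated mice by the edgeR quasi-likelihood test, while 3 of all 17131 genes rose (0.0175%) and 0 fell. Of the 39 members, 2 had an unadjusted p under 0.05, both higher, compared with 1930 of all 17131 genes in either direction. DESeq2 called 1 member higher, again Psmd5, compared with 0.307% of genes higher and 0.319% lower. Scaling by library size alone left 0 members called, compared with 0.0117% of all genes higher. Libraries did not overlap for 1 member that was higher and 0 that were lower (0.391% and 0.992% of all genes). The median log2 fold change of the members was 0.00, the fold changes ran from -0.11 to 0.21, and the summed level was 3382 ± 79.3 CPM (SD, n = 6). The plot of fold changes gives the 4 comparisons side by side, and the map of single mice gives each library.

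**Figure D2:**
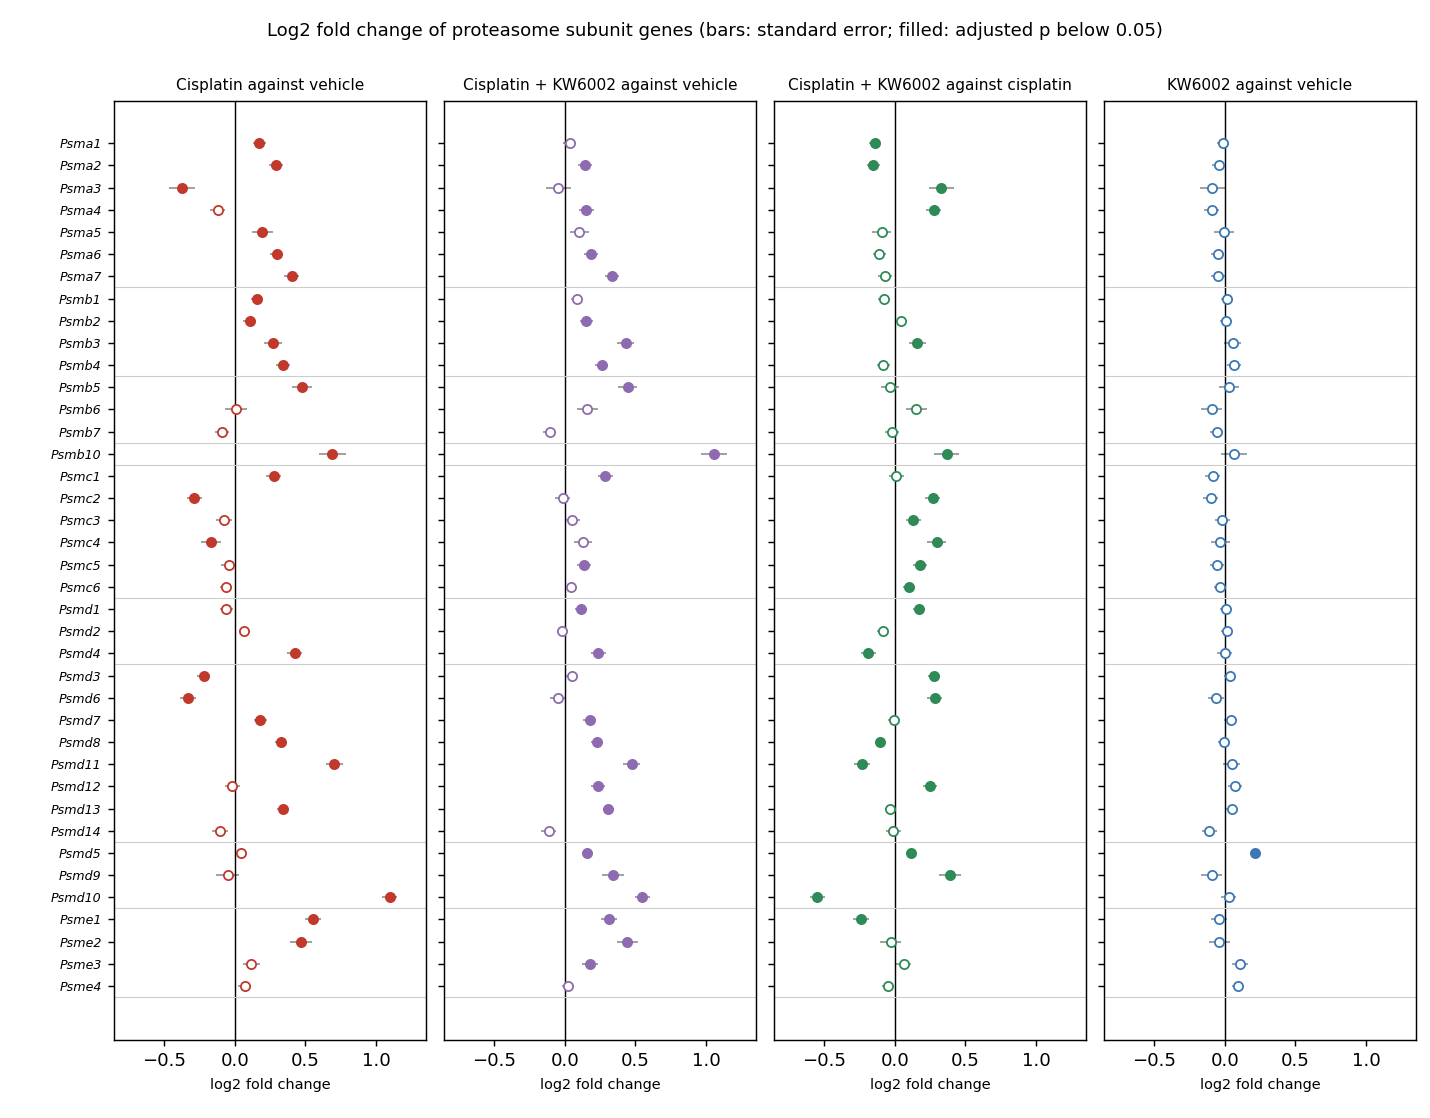
Log2 fold change of the 39 members tested in 4 comparisons, with standard errors as bars and filled circles where the edgeR adjusted p was under 0.05. Cisplatin moved Psmd10 by 1.10 and Psmd11 by 0.70, and with KW6002 alone Psmd5 is the 1 filled circle.

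**Figure D3:**
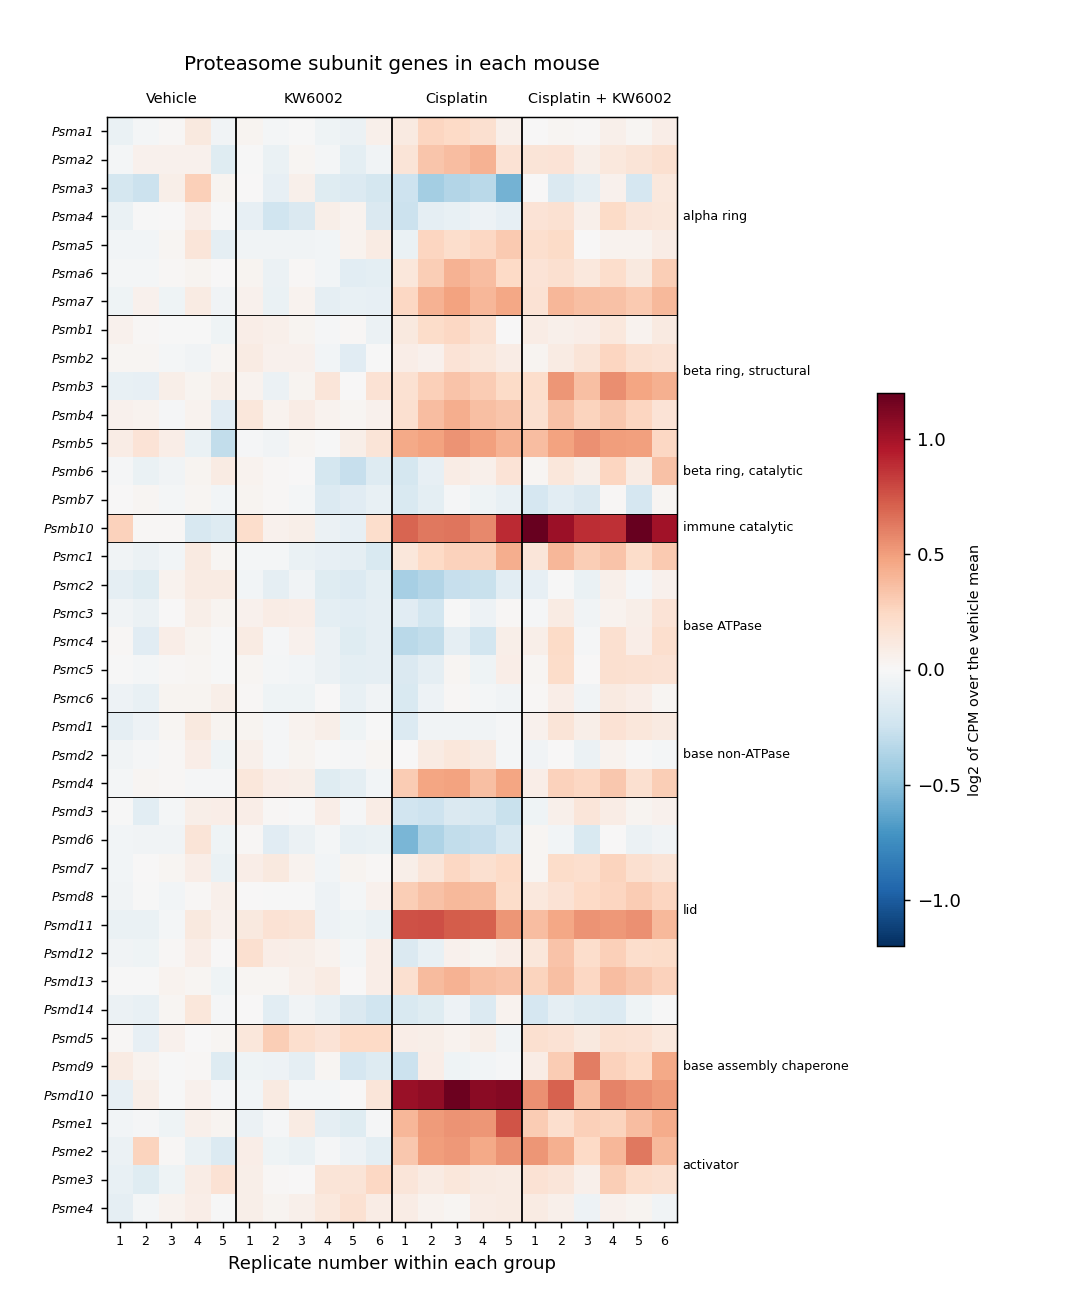
Level of the 39 members tested in each of the 22 mice as log2 of CPM over the vehicle mean, ordered by role (rows) and by group and replicate (columns). Psmd10 and Psmd11 are darkest red with cisplatin, and Psmb10 is darkest red with cotreatment.

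The alpha ring forms the gate of the barrel. After cisplatin 5 of its 7 tested members rose, compared with 34.6% of all genes, while Psma3 fell and Psma4 was not called. The rise of Psma5 did not pass without vehicle or cisplatin replicate 5 (0.17, edgeR adjusted p 0.0520 to 0.0524), when the 300s and 500s were a term of the fit, or with these groups alone, and neither Psma1 nor Psma5 passed within the 500s. Psma7, the alpha subunit with the largest rise, measured 92.1, 98.6, 91.9, 102.002 and 92.6 CPM in the vehicle kidneys and 113, 127, 133, 126 and 131 CPM in the cisplatin kidneys. It measured 88.7 to 98.6 (median 90.1) CPM with KW6002 and 108 to 126 (median 122) CPM with cotreatment. All cisplatin and all cotreated kidneys lay above every vehicle and KW6002 kidney. The log2 fold change was 0.40 ± 0.05 (SE; edgeR adjusted p = 3.99e-07) with cisplatin and -0.07 ± 0.05 (adjusted p = 0.248) for cotreatment compared with cisplatin.

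Psma3 moved the other way. It measured 15.2, 14.6, 18.3, 21.4 and 17.9 CPM in vehicle kidneys, 14.7, 13.2, 13.7, 13.99 and 11.8 CPM with cisplatin, 15.1 to 18.2 (median 16.1) CPM with KW6002 and 15.2 to 19.1 (median 16.9) CPM with cotreatment. The cisplatin kidneys were low and overlapped the vehicle kidneys by a single library, while all cotreated kidneys lay above all cisplatin kidneys. It fell by 0.37 ± 0.09 on the log2 scale with cisplatin (edgeR adjusted p = 0.000964) and was higher by 0.33 ± 0.09 with cotreatment than with cisplatin (adjusted p = 0.00298). Of its 50-base words 15.4% occur at other loci. Psma4 was likewise higher with cotreatment than with cisplatin (0.27 ± 0.05, edgeR adjusted p = 0.000128), whereas Psma1 and Psma2 fell from their cisplatin levels by 0.14 ± 0.04 and 0.15 ± 0.05. The fall of Psma2 did not pass without cisplatin replicate 4 (-0.12, adjusted p = 0.0533).

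The structural beta subunits build the inner rings without cutting sites. All 4 rose with cisplatin, by 0.11 (Psmb2) to 0.34 (Psmb4) on the log2 scale, while 34.6% of all genes rose. The call of Psmb2 was lost without any 1 of the 5 vehicle libraries or cisplatin replicate 3 or 4 (fold changes of 0.09 to 0.11, edgeR adjusted p 0.0507 to 0.0967), and with no filter, the replicate block or the 500s alone. Psmb4 measured 134, 133, 127, 133 and 117 CPM in vehicle kidneys, 147, 166, 174, 166 and 163 CPM with cisplatin, 131 to 141 (median 133) CPM with KW6002 and 144 to 165 (median 155) CPM with cotreatment. Every cisplatin and every cotreated kidney was above every vehicle and KW6002 kidney. Its log2 fold change with cisplatin was 0.34 ± 0.05 (edgeR adjusted p = 1.95e-06), and that of cotreatment compared with cisplatin was -0.08 ± 0.05 (adjusted p = 0.154), which passed without cisplatin replicate 1 (-0.11, adjusted p = 0.0417).

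Psmb3, another structural subunit, measured 18.5, 18.4, 20.7, 20.2 and 20.7 CPM in vehicle kidneys, 22.3, 24.1, 24.9, 24.4 and 23.2 CPM with cisplatin, 18.8 to 22.2 (median 20.3) CPM with KW6002 and 22.7 to 29.0 (median 27.0) CPM with cotreatment. It was the structural subunit with the largest rise in cotreated compared with vehicle-treated mice, and no cotreated kidney was as low as a vehicle kidney. The log2 fold changes were 0.27 ± 0.06 with cisplatin, 0.43 ± 0.06 with cotreatment (edgeR adjusted p = 0.000603 and 2.50e-06) and 0.16 ± 0.06 between them (adjusted p = 0.027). The call between cotreatment and cisplatin was lost with library size as the only scaling (0.10, adjusted p = 0.155) and, with an adjusted p of 0.0506 to 0.0758 and a fold change of 0.13 to 0.15, without cisplatin replicate 1 or 5 or cotreated replicate 2, 4 or 5. Of the 50-base words of Psmb3, 17.8% occur at other loci.

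The constitutive catalytic subunits did not move together. Psmb5, the chymotrypsin-like subunit, measured 24.0, 25.2, 23.9, 21.4 and 18.3 CPM in vehicle kidneys, 30.8, 31.6, 32.8, 31.8 and 30.1 CPM with cisplatin, 21.9 to 25.0 (median 22.7) CPM with KW6002 and 26.8 to 33.1 (median 31.6) CPM with cotreatment. Both cisplatin groups lay above every vehicle and KW6002 kidney and overlapped each other. It rose by 0.48 ± 0.07 with cisplatin (edgeR adjusted p = 2.34e-06) and by 0.44 ± 0.07 with cotreatment (adjusted p = 6.80e-06).

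Psmb6, the caspase-like subunit, measured 138, 132, 135, 143 and 149 CPM in vehicle kidneys, 120.3, 130.4, 149, 146 and 156 CPM with cisplatin, 115 to 144 (median 132) CPM with KW6002 and 142 to 178 (median 151) CPM with cotreatment. The groups overlapped, and within KW6002 the 3 mice of the 300s (144, 141 and 139.7 CPM) lay above the 3 of the 500s (120.5, 115 and 125 CPM). Its log2 fold change was 0.01 ± 0.08 with cisplatin (edgeR adjusted p = 0.936) and 0.15 ± 0.07 for cotreatment compared with cisplatin (adjusted p = 0.0786). The second passed without cotreated replicate 1 or cisplatin replicate 5 (0.18 to 0.19, adjusted p 0.0335 to 0.0490), and cotreatment compared with vehicle (0.16 ± 0.07, adjusted p = 0.0628) passed without vehicle replicate 5 or cotreated replicate 1 (0.19, adjusted p 0.0389 to 0.0477). Psmb7, the trypsin-like subunit, measured 114, 115, 111, 115 and 110.3 CPM in vehicle kidneys, 99.5, 104, 112, 109 and 107 CPM with cisplatin, 101 to 115 (median 109) CPM with KW6002 and 98.2 to 115 (median 102.03) CPM with cotreatment. No group of Psmb7 was separate from another. Its log2 fold change with cisplatin was -0.09 ± 0.05 (edgeR adjusted p = 0.128), which turned to 0.13 (adjusted p = 0.0256) with library size as the only scaling. For cotreatment compared with vehicle the value was -0.11 ± 0.05 (edgeR adjusted p = 0.0648), which passed without cotreated replicate 4 or 6 (-0.14 to -0.13, adjusted p 0.0192 to 0.0250). Exons of Psmb7 share 405 bases with Nek6 on the other strand.

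Psmb10 is the immune counterpart of Psmb7 and takes its place in the immunoproteasome. It measured 15.2, 12.7, 12.7, 11.02 and 11.4 CPM in vehicle kidneys, 20.4, 19.5, 19.6, 18.8 and 23.4 CPM with cisplatin, 11.8 to 14.6 (median 13.1) CPM with KW6002 and 23.2 to 30.8 (median 25.5) CPM with cotreatment. Kidneys of both cisplatin groups were high, above every vehicle and KW6002 kidney, and the cotreated kidneys overlapped the cisplatin kidneys only through cisplatin replicate 5. The log2 fold change was 0.69 ± 0.10 with cisplatin (edgeR adjusted p = 9.34e-07), 1.06 ± 0.09 with cotreatment (adjusted p = 1.96e-09) and 0.37 ± 0.09 for cotreatment compared with cisplatin (adjusted p = 0.00131). It was the 1 member that passed the stricter rule in cotreated compared with vehicle-treated mice, as did 5.83% of all genes with a rise and 7.59% with a fall. With KW6002 alone the value was 0.07 ± 0.09 (edgeR adjusted p = 0.823). The effect of KW6002 beside cisplatin less its effect alone was 0.30 ± 0.13 (edgeR adjusted p = 0.0626), which was not called. That difference passed without 7 of the 22 libraries in turn (0.33 to 0.36, adjusted p 0.0275 to 0.0474). They were KW6002 replicates 1 and 6, vehicle replicates 4 and 5, cisplatin replicate 5 and cotreated replicates 3 and 4.

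Reads of Psmb10 per 100 reads of Psmb7 compare the pair within a library and do not depend on scaling. They were 13.4, 11.1, 11.4, 9.57 and 10.3 in vehicle kidneys, 20.5, 18.7, 17.5, 17.3 and 21.99 with cisplatin, 11.4 to 13.7 (median 11.8) with KW6002 and 20.2 to 31.2 (median 24.0) with cotreatment. Means were 11.1 ± 1.44, 19.2 ± 2.03, 12.1 ± 0.873 and 25.2 ± 4.38 (SD, n = 5, 5, 6 and 6). Every kidney of both cisplatin groups lay above every kidney of the other groups. On the log2 scale the ratio was higher by 0.79 ± 0.11 (SE) with cisplatin than with vehicle (exact two-sided permutation test, p = 0.00794, adjusted over 3 comparisons 0.0238), the smallest p that 252 splits allow. It was higher by 0.38 ± 0.12 with cotreatment than with cisplatin (exact permutation p = 0.0173, adjusted 0.0260), and by 0.13 ± 0.09 with KW6002 than with vehicle (exact permutation p = 0.156, adjusted 0.156). Without cisplatin replicate 2, 3 or 4 the exact adjusted p of cotreatment compared with cisplatin was 0.0571, and without vehicle replicate 1 that of KW6002 compared with vehicle was 0.0173. Within the 500s the ratio was higher by 0.94 with cisplatin than with vehicle (exact permutation test, adjusted p = 0.143) and by 0.31 with KW6002 than with vehicle (exact adjusted p = 0.200), where 2 vehicle mice are too few to pass.

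**Figure D4:**
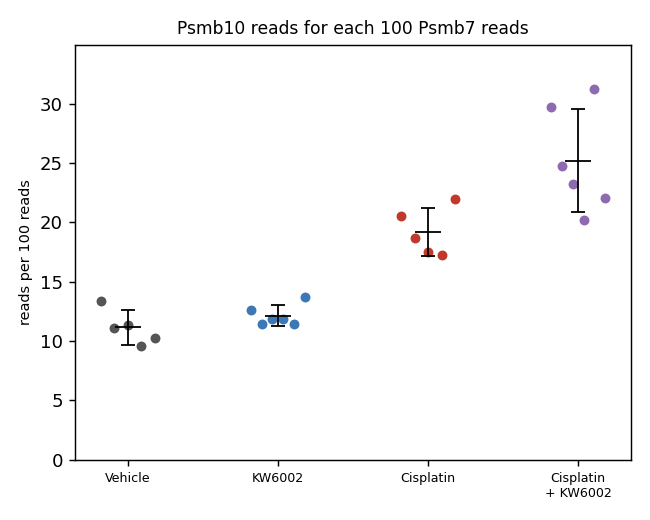
Reads of Psmb10 per 100 reads of Psmb7 in each mouse, with means and SD. Both cisplatin groups lie above the vehicle and KW6002 groups, at means of 19.2 and 25.2 compared with 11.1 and 12.1.

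Beside Psmb10, 4 genes that interferon-gamma induces were higher with cotreatment than with cisplatin. Irf1, a transcription factor of the interferon response, measured 24.8 to 31.2 CPM with cisplatin and 36.1 to 55.3 with cotreatment, compared with 19.3 to 23.2 in vehicle kidneys (log2 fold change for cotreatment compared with cisplatin of 0.72 ± 0.09, edgeR adjusted p = 8.88e-07). The same fold change was 0.67 ± 0.12 for the GTPase gene Gbp2 (adjusted p = 5.42e-05) and 0.88 ± 0.16 for the GTPase gene Iigp1 (adjusted p = 8.36e-05). It was 3.35 ± 0.30 for Ciita, the activator of MHC class II genes (adjusted p = 4.71e-09), which fell by 2.78 ± 0.31 with cisplatin (adjusted p = 3.64e-08). Irf1 rose with cisplatin (0.40 ± 0.10, edgeR adjusted p = 0.00103), while Gbp2 and Iigp1 were not called there. Macrophage markers summed to between 136 and 237 CPM in vehicle kidneys, between 137 and 270.5 with KW6002, between 164 and 218 with cisplatin and between 94.2 and 136 with cotreatment. T and B lymphocyte markers summed to between 3.19 and 6.31 CPM in vehicle kidneys, between 3.06 and 6.20 with KW6002, between 1.07 and 1.95 with cisplatin and between 0.957 and 2.13 with cotreatment. Neutrophil markers summed to between 3.70 and 15.9, between 4.15 and 10.2, between 4.32 and 9.43, and between 3.55 and 6.56 CPM in the same order. Single markers moved both ways in cotreated compared with cisplatin-treated mice (log2 fold changes, edgeR adjusted p under 0.05). Of 5 macrophage markers Csf1r was higher (0.23) and Cd68 lower (-2.14). Of 5 lymphocyte markers tested Cd8a was higher (1.75) and Cd4 lower (-1.07), both at low levels. Cd8a measured 0.0799 to 0.201 CPM with cisplatin and 0.203 to 0.863 CPM with cotreatment. Cd4 measured 0.642 to 1.19 and 0.290 to 0.716 CPM in these groups. Of 3 neutrophil markers tested 0 were higher and 1 was lower. The part of these genes in the level of Psmb10 was not tested.

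The ATPases of the base unfold substrates and feed them into the core. After cisplatin Psmc1 rose, Psmc2 and Psmc4 fell, and Psmc3, Psmc5 and Psmc6 were not called. In cotreated compared with cisplatin-treated mice 5 of the 6 rose, compared with 28.6% of all genes, and the sixth, Psmc1, was at 0.01 ± 0.05 (edgeR adjusted p = 0.85). Of these 5 calls, that of Psmc3 (0.13) was lost under 6 of 9 other settings, DESeq2 and library size scaling among them, and without cisplatin replicate 1, 2 or 4 or cotreated replicate 2, 4, 5 or 6 (0.10 to 0.14, adjusted p 0.0569 to 0.140). That of Psmc6 (0.10) was lost under 5 of the 9, library size scaling among them, and without cisplatin replicate 1 or 2 or cotreated replicate 2, 4 or 5 (0.07 to 0.10, adjusted p 0.0615 to 0.132). Psmc2 measured 98.9, 96.8, 109.6, 114 and 114 CPM in vehicle kidneys, 81.0, 83.6, 87.9, 88.4 and 97.5 CPM with cisplatin, 95.5 to 105 (median 98.9) CPM with KW6002 and 99.8 to 111 (median 106) CPM with cotreatment. Cisplatin kidneys were low, with a single library inside the vehicle range, and all cotreated kidneys were above all cisplatin kidneys. It fell by 0.28 ± 0.06 with cisplatin (edgeR adjusted p = 8.61e-05), rose by 0.27 ± 0.05 from the cisplatin level with cotreatment (adjusted p = 0.000162) and stood at -0.01 ± 0.05 in cotreated compared with vehicle-treated mice (adjusted p = 0.836). This last value turned to 0.14 (adjusted p = 0.0165) when library size was the only scaling.

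Psmc4 measured 108, 97.2, 113, 109.6 and 106 CPM in vehicle kidneys, 85.5, 87.3, 99.4, 91.6 and 112 CPM with cisplatin, 96.4 to 114 (median 104) CPM with KW6002 and 106 to 126 (median 118) CPM with cotreatment. The groups overlapped, since cisplatin replicate 5 was near the top of the vehicle range. It fell by 0.17 ± 0.07 with cisplatin (edgeR adjusted p = 0.0331), a call that was lost without vehicle replicate 1, 3 or 4 or cisplatin replicate 1, 2 or 4 (fold changes of -0.17 to -0.13, adjusted p 0.0530 to 0.103). It was higher with cotreatment than with cisplatin by 0.30 ± 0.07 (adjusted p = 0.000576).

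Among the other base subunits, Psmd1 and Psmd2 are scaffolds and Psmd4 is a ubiquitin receptor. Psmd4 measured 101, 104, 103, 101 and 101 CPM in vehicle kidneys, 126, 142, 143, 131 and 142 CPM with cisplatin, 92.5 to 112 (median 103) CPM with KW6002 and 108 to 127 (median 122) CPM with cotreatment. Cisplatin kidneys were above every vehicle and KW6002 kidney, and cotreated kidneys were above every vehicle kidney and reached the lowest cisplatin kidney. The log2 fold change was 0.42 ± 0.06 with cisplatin (edgeR adjusted p = 4.21e-07) and -0.19 ± 0.05 for cotreatment compared with cisplatin (adjusted p = 0.0045). Psmd1 rose from its cisplatin level with cotreatment (0.17 ± 0.04, edgeR adjusted p = 0.00124), and Psmd2 was called in no comparison.

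The lid holds the deubiquitinase Psmd14 and its scaffolds. After cisplatin Psmd7, Psmd8, Psmd11 and Psmd13 rose and Psmd3 and Psmd6 fell, and Psmd12 and Psmd14 were not called (-0.02 ± 0.05 and -0.10 ± 0.06). Psmd11, a scaffold that ties the lid to the core, measured 61.4, 61.5, 63.7, 70.4 and 67.4 CPM in vehicle kidneys, 109.9, 111, 108, 106 and 93.8 CPM with cisplatin, 61.6 to 73.4 (median 66.6) CPM with KW6002 and 84.0 to 94.9 (median 91.2) CPM with cotreatment. Both cisplatin groups were high throughout, and cisplatin replicate 5 was the 1 cisplatin kidney inside the cotreated range. It rose by 0.70 ± 0.06 with cisplatin (edgeR adjusted p = 5.73e-10) and was lower by 0.23 ± 0.06 with cotreatment than with cisplatin (adjusted p = 0.00171), while remaining 0.47 ± 0.06 above vehicle (adjusted p = 3.92e-07). Of its 50-base words 9.43% occur at other loci.

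Psmd6 was the lid subunit with the largest fall. It measured 73.1, 72.7, 72.6, 82.9 and 71.8 CPM in vehicle kidneys, 51.2, 57.9, 60.7, 61.4 and 65.4 CPM with cisplatin, 68.1 to 75.3 (median 70.9) CPM with KW6002 and 65.6 to 75.7 (median 72.8) CPM with cotreatment. Every cisplatin kidney was below every other kidney. The fall was 0.33 ± 0.06 on the log2 scale (edgeR adjusted p = 1.80e-05), and cotreated kidneys were 0.28 ± 0.05 above cisplatin kidneys (adjusted p = 0.000128) and at -0.05 ± 0.05 from vehicle (adjusted p = 0.453). Psmd3, another scaffold of the lid, averaged 161 ± 8.99, 166 ± 5.36, 138 ± 3.62 and 167 ± 7.49 CPM in the vehicle, KW6002, cisplatin and cotreated groups (SD, n = 5, 6, 5 and 6). Its cisplatin kidneys did not overlap the vehicle or the cotreated kidneys. None of the 5 falls named above with cisplatin passed with library size as the only scaling, where Psmd6 stood at -0.11 (adjusted p = 0.0676).

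The base chaperones Psmd5, Psmd9 and Psmd10 hold ATPases while the base is put together and are no part of the finished particle. Psmd10 (gankyrin), which also binds the retinoblastoma protein and MDM2, lies on chrX:140948429-140956728, minus strand of mm10. It measured 21.1, 23.7, 22.6, 23.4 and 22.4 CPM in vehicle kidneys, 46.3, 47.4, 51.2, 48.0 and 48.7 CPM with cisplatin, 22.1 to 25.0 (median 22.5) CPM with KW6002 and 29.2 to 37.0 (median 33.0) CPM with cotreatment. Cisplatin kidneys were the highest, cotreated kidneys lay between, and neither overlapped another group. It rose by 1.10 ± 0.05 with cisplatin (edgeR adjusted p = 5.36e-14), fell from there by 0.55 ± 0.05 with cotreatment (adjusted p = 8.84e-09) and stayed 0.55 ± 0.05 above vehicle (adjusted p = 9.59e-09).

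Psmd5 was the member called with KW6002 alone, and the plot of single members shows it with 5 others. It lies on chr2:34849734-34874968, minus strand of mm10, where the gene Cutal overlaps it on the other strand without shared exon bases. It measured 50.1, 46.2, 51.2, 49.8 and 50.4 CPM in vehicle kidneys, 52.3, 52.0, 51.0, 51.9 and 48.2 CPM with cisplatin, 54.5, 60.8, 57.03, 55.5, 58.3 and 58.3 CPM with KW6002 and 56.7, 55.8, 53.7, 56.1, 55.9 and 54.0 CPM with cotreatment. All KW6002 kidneys were above all vehicle kidneys, within the 300s as within the 500s, and all cotreated kidneys were above all cisplatin kidneys. The log2 fold change was 0.21 ± 0.04 with KW6002 alone (edgeR adjusted p = 0.0464), 0.12 ± 0.04 for cotreatment compared with cisplatin (adjusted p = 0.00999) and 0.04 ± 0.04 with cisplatin (adjusted p = 0.313). The effect of KW6002 beside cisplatin less its effect alone was -0.10 ± 0.05 (adjusted p = 0.141). With library size as the only scaling the value with KW6002 alone was 0.23 (adjusted p = 0.0657) and that for cotreatment compared with cisplatin 0.06 (adjusted p = 0.249). The call with KW6002 alone was lost without vehicle replicate 1, 2, 4 or 5 or KW6002 replicate 2, 3, 5 or 6 (fold changes of 0.19 to 0.22, adjusted p 0.0540 to 0.145) and within the 500s (0.20, adjusted p = 0.197).

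Psmd9 averaged 32.6 ± 2.04 CPM in vehicle kidneys, 30.6 ± 1.74 with KW6002, 31.5 ± 2.58 with cisplatin and 41.3 ± 5.34 with cotreatment (SD, n = 5, 6, 5 and 6). All cotreated kidneys were above all cisplatin kidneys. The log2 fold change was 0.39 ± 0.07 for cotreatment compared with cisplatin (edgeR adjusted p = 0.000125) and -0.05 ± 0.08 with cisplatin (adjusted p = 0.578). Exons of Psmd9 share 1849 bases with Gm26745 on the other strand, and reads of the pair cannot be told apart if strand was not used in counting.

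**Figure D5:**
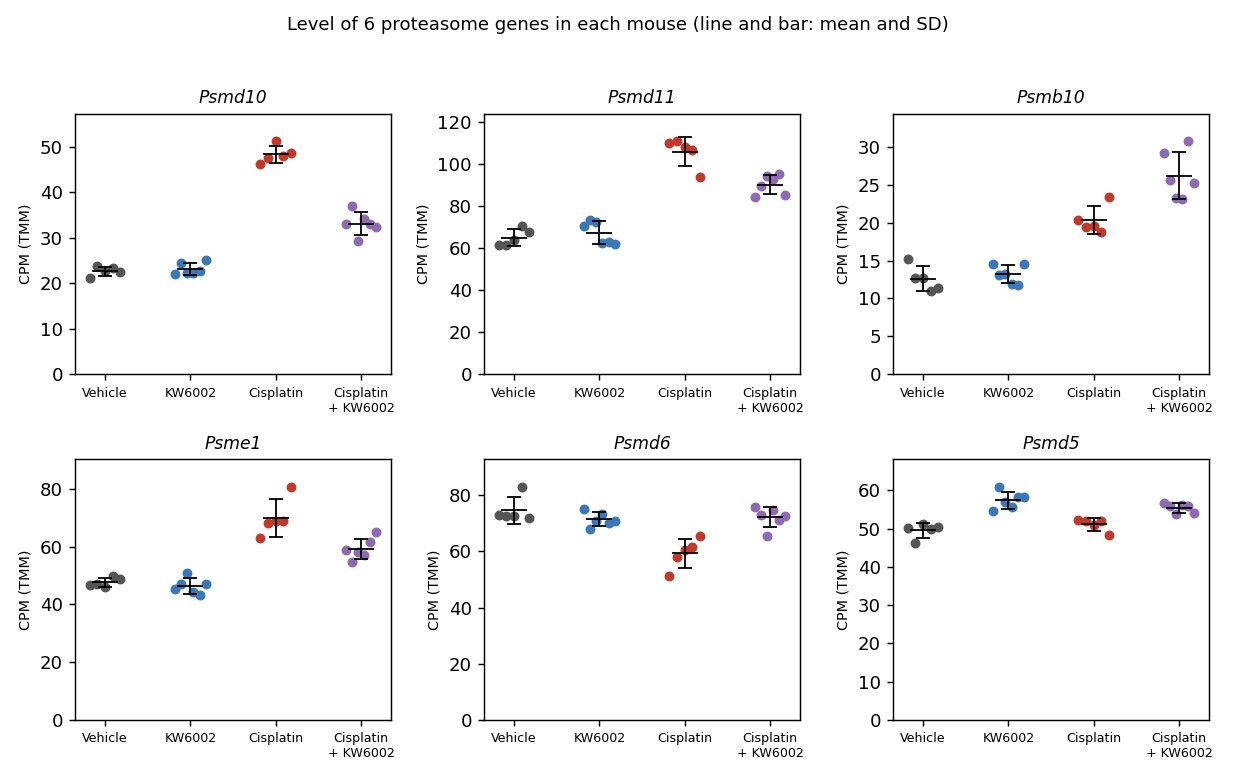
CPM of 6 members in each mouse (points), with means and SD. Psmd10 stands at 46.3 to 51.2 with cisplatin and at 29.2 to 37.0 with cotreatment, Psmd6 is lower with cisplatin, and Psmd5 is higher in both KW6002 groups.

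Activators open the core without ubiquitin. Psme1 and Psme2, which together form the activator that interferon-gamma induces, both rose with cisplatin, and Psme3 and Psme4, the nuclear activators, were not called. Psme1 measured 46.6, 47.1, 46.0, 49.8 and 48.6 CPM in vehicle kidneys, 62.9, 68.1, 69.0, 68.7 and 80.6 CPM with cisplatin, 43.1 to 50.9 (median 46.3) CPM with KW6002 and 54.8 to 64.9 (median 58.4) CPM with cotreatment. All kidneys of both cisplatin groups were above all others, and a single cisplatin kidney, replicate 1, was inside the cotreated range. The rise was 0.55 ± 0.06 with cisplatin (edgeR adjusted p = 1.69e-08), and cotreated kidneys were 0.24 ± 0.06 lower on the log2 scale than cisplatin kidneys (fold change of -0.24, adjusted p = 0.000949).

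Psme2 measured 12.2, 15.5, 13.0, 12.2 and 11.5 CPM in vehicle kidneys, 16.1, 18.3, 18.4, 17.6 and 18.7 CPM with cisplatin, 11.8 to 13.6 (median 12.4) CPM with KW6002 and 15.2 to 19.9 (median 17.1) CPM with cotreatment. It was high in both cisplatin groups, which overlapped each other, and the lowest cotreated kidney was just under the highest vehicle kidney. The log2 fold change was 0.47 ± 0.08 with cisplatin (edgeR adjusted p = 1.04e-05) and -0.03 ± 0.07 for cotreatment compared with cisplatin (adjusted p = 0.761).

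Psme3 measured 91.2, 87.9, 93.9, 103 and 109.8 CPM in vehicle kidneys, 108, 104, 107, 105 and 104 CPM with cisplatin, 97.8 to 115 (median 105) CPM with KW6002 and 101.54 to 119 (median 110.3) CPM with cotreatment. All groups of Psme3 overlapped, and its log2 fold change with cisplatin was 0.12 ± 0.06 (edgeR adjusted p = 0.0714), which passed the threshold without vehicle replicate 4 (0.14, adjusted p = 0.0483) or 5 (0.16, adjusted p = 0.0123). Vehicle replicates 4 and 5 are the vehicle mice of the 500s, the series of all cisplatin-treated mice. Psme3 was called in cotreated compared with vehicle-treated mice (0.18). That call was lost within the 500s (0.05, edgeR adjusted p = 0.518) and with the label series as a term of the fit (0.07, adjusted p = 0.176). Psme4 measured 220.4, 233, 245, 251 and 236 CPM in vehicle kidneys, 252, 244, 241, 252 and 254 CPM with cisplatin, 242 to 269 (median 251) CPM with KW6002 and 228 to 254 (median 244) CPM with cotreatment. These groups overlapped too, at 0.07 ± 0.04 on the log2 scale after cisplatin (edgeR adjusted p = 0.159).

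The effect of KW6002 was compared between mice with and without cisplatin. The difference was positive for 10 members and negative for 4 by the edgeR quasi-likelihood test, compared with 22.8% and 19.9% of all genes, and with library size as the only scaling it was positive for 7 and negative for 13, compared with 17.8% and 24.0%. Among the 9024 genes with levels in the members' range, the edgeR test gave 29.5% positive and 21.9% negative. DESeq2 gave 9 positive and 6 negative, compared with 17.6% and 17.0% of genes. The stricter rule was passed by none of the members, compared with 4.24% and 4.33% of all genes. The lowest value was that of Psmd10 (-0.58 ± 0.07, edgeR adjusted p = 2.18e-06), and the highest was that of Psmd9 (0.48 ± 0.11, adjusted p = 0.00088). ATPases held 3 of the 10 positive members, Psmc2, Psmc4 and Psmc5, and the lid another 3, Psmd3, Psmd6 and Psmd12. The call of Psmd12 (0.18 ± 0.07) was lost with DESeq2, with the replicate block, under 4 other scalings or filters, and without 14 of the 22 libraries in turn (0.14 to 0.18, edgeR adjusted p 0.0505 to 0.101).

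Other genes of the pathway were taken from a list of 32, of which 31 were tested. With cisplatin 7 rose and 9 fell, compared with 34.6% and 35.9% of all genes. With cotreatment compared with cisplatin 9 rose and 1 fell (28.6% and 27.2% of all genes), and with cotreatment compared with vehicle 12 rose and 4 fell (29.8% and 29.9%). With KW6002 alone 0 were called by the edgeR test or by DESeq2. At an unadjusted p under 0.05 there were 5, compared with 1930 of all 17131 genes. With library size as the only scaling, 21 rose and 1 fell with cisplatin (47.6% and 24.8% of all genes). The counts were then 6 and 4 with cotreatment compared with cisplatin (23.9% and 31.7%), and 17 and 0 with cotreatment compared with vehicle (43.2% and 20.6%). Of the factors that help assemble the core and base, Psmg4 rose (0.83 ± 0.08, edgeR adjusted p = 7.39e-09) and Psmg1 and Psmg2 fell with cisplatin. The core assembly factor Pomp averaged 69.6 ± 5.50, 61.8 ± 3.73, 72.3 ± 4.57 and 69.8 ± 5.12 CPM in the vehicle, KW6002, cisplatin and cotreated groups (SD) and moved by 0.06 ± 0.06 on the log2 scale with cisplatin (edgeR adjusted p = 0.432, not called).

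Among the transcription factors, Nfe2l1 averaged 267 ± 29.0, 268 ± 21.4, 282 ± 7.23 and 255 ± 14.02 CPM in the same order, at 0.08 ± 0.07 on the log2 scale after cisplatin (edgeR adjusted p = 0.32). Nfe2l2, the oxidative stress factor, averaged 115 ± 10.7, 112 ± 4.44, 300.2 ± 19.1 and 201 ± 12.3 CPM. It had the largest change of the list with cisplatin, a rise of 1.38 ± 0.06 (edgeR adjusted p = 7.73e-15), and was lower by 0.58 ± 0.06 with cotreatment than with cisplatin (adjusted p = 1.74e-08). Rps27a, which encodes ubiquitin fused to a ribosomal protein, averaged 2.47 ± 0.551, 2.67 ± 0.360, 4.07 ± 0.259 and 3.86 ± 0.607 CPM and rose by 0.72 ± 0.14 with cisplatin (edgeR adjusted p = 0.000101). These values cover uniquely aligned reads only. The sequence that Rps27a shares with other loci was not measured, so its level may be understated.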

How the data were processed

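Counts were made by the authors from polyA RNA-Seq libraries (stranded kit, single reads of 50 bases). Per the labels and the study's methods, reads were mapped to mm10 with STAR, uniquely aligned reads were kept, and HTSeq 0.6.1p1 counted them per gene in union mode. The strand setting is not given in the sources used here. The deposited values are raw counts, and 66 unnamed columns were not used. Positions, exon lengths and overlaps came from GENCODE M21. Of 32858 genes, 17131 passed edgeR's filter by group (10 counts), with 99.9% of the counts. All 22 libraries entered 1 edgeR 4.0.16 quasi-likelihood fit with TMM factors and a mean for each group. SE is the size of the log2 fold change over the root of F. CPM uses TMM. The members and lists were chosen with earlier results of these data known. Values in every library are given for Psmd5, Psmb10, Psmb7, Psmb5, Psmb6, the activators, and, in each role, the members with the largest change with cisplatin and with cotreatment compared with cisplatin. Other members are given by counts, ranges or group means. Of the pathway list, the 3 largest changes with cisplatin, Pomp, Nfe2l1 and Nfe2l2 are given. Shared sequence was measured as 50-base words. Totals of 26471762 to 40510754 counts and a biological coefficient of variation of 0.129 set the precision. Nothing says more of replicates than that each is a mouse. No 2 libraries of a group agreed within sampling noise (chi-square per degree of freedom at least 2.83). Scripts were tested on simulated data. Alternatives were DESeq2 1.42.0, other scalings and filters, a replicate block, the label series and each library left out. The list of interferon-gamma response genes is reported in part, and 1 promoter stretch is not reported here.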

Additional observations from a re-analysis of the deposited data

Results flagged for a closer look

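In 164 groups of values looked at with Dixon's test for a library far from the others, 5 values stood apart. Chance gives about 1 in 20 groups. Psma4 was low in cisplatin replicate 1 (60.3 CPM, the others between 67.1 and 69.3), as was Psmd1 (130.2 CPM, the others between 142 and 145). Psmd5 was low in vehicle replicate 2 (46.2 CPM, the others between 49.8 and 51.2). Psmd11 was low in cisplatin replicate 5 (93.8 CPM, the others between 106 and 111). Psmd6 was high in vehicle replicate 4 (82.9 CPM, the others between 71.8 and 73.1).

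The effect of KW6002 differed between mice with and without cisplatin for 14 members (edgeR quasi-likelihood interaction, adjusted p under 0.05). Of the 39 tested, 10 were positive and 4 negative, compared with 22.8% and 19.9% of all genes. The log2 difference was negative for Psmd10 (-0.58), Psmd11 (-0.28), Psme1 (-0.20) and Psmd4 (-0.19). It was positive for Psmd9 (0.48), Psma3 (0.42), Psmc2 (0.37), Psma4 (0.37), Psmd6 (0.34), Psmc4 (0.33), Psmd3 (0.24), Psmc5 (0.23), Psmd12 (0.18) and Psmd1 (0.16). For Psme1 the call was lost without 16 of the 22 libraries in turn, each library apart from vehicle replicate 4, KW6002 replicates 4 and 5, cisplatin replicate 1 and cotreated replicates 5 and 6 (-0.21 to -0.14, adjusted p 0.0541 to 0.106). For Psmd4 it was lost without 15, each library apart from KW6002 replicates 4, 5 and 6, cisplatin replicates 1 and 4 and cotreated replicates 4 and 6 (-0.19 to -0.16, adjusted p 0.0511 to 0.0850). For Psmd12 it was lost without 14, each library apart from vehicle replicates 1 and 2, KW6002 replicate 1, cisplatin replicates 3, 4 and 5 and cotreated replicates 1 and 3 (0.14 to 0.18, adjusted p 0.0505 to 0.101), and with DESeq2, relative log expression or library size scaling, either other filter and the replicate block (0.10 to 0.19, adjusted p 0.0591 to 0.243). For Psmd1 it was lost without vehicle replicate 4, KW6002 replicate 5, cisplatin replicate 1 or cotreated replicate 4 (0.14 to 0.15, adjusted p 0.0505 to 0.0678), with library size scaling and with no filter. The calls of Psme1 and Psmd4 were also lost with no filter, with the replicate block and within the 500s, that of Psmd11 within the 500s (-0.08, adjusted p = 0.541) and that of Psmc5 with library size scaling (0.16, adjusted p = 0.0621). The difference was gained by Psmb6 (0.27 to 0.29), Psme4 (-0.16 to -0.15) and Psmb4 (-0.18) without 4, 3 and 1 of the libraries: KW6002 replicates 1 and 2, cotreated replicate 1 and cisplatin replicate 5 for Psmb6, KW6002 replicate 2, vehicle replicate 4 and cotreated replicate 1 for Psme4, and cisplatin replicate 1 for Psmb4 (adjusted p 0.0275 to 0.0478).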

How the results depend on the processing

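Counts of members called stayed within 1.5 times the values reported under every alternative run for cisplatin and for cotreatment compared with vehicle, for cotreatment compared with cisplatin and for the difference of the KW6002 effects. With KW6002 alone the count was 0 with library size scaling, with no filter on low counts, with the replicate block, with the mice numbered in the 500s and with the 2 groups alone. With each library left out it was 0 to 1.

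With library size scaling the median log2 fold change of the members was 0.34 with cisplatin, -0.065 for cotreatment compared with cisplatin, 0.32 for cotreatment compared with vehicle and -0.060 for the difference. Psmb7 (0.13) and Psmc4 (0.048) with cisplatin and Psmc2 (0.14) with cotreatment compared with vehicle turned positive there. The medians relative to all genes were 0.13, -0.01, 0.16 and 0.00. The median over all genes under library size scaling was 0.20 with cisplatin and 0.16 with cotreatment compared with vehicle. With TMM these medians were -0.01 and -0.002.

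Within the 500s the member medians were -0.048 with KW6002 and 0.061 for the difference. There 21 of the 25 calls with cisplatin and 19 of the 24 with cotreatment compared with vehicle held. The log2 ratio of Psmb10 to Psmb7 was 0.94 with cisplatin (exact adjusted p = 0.143, in a design too small to pass) and 0.38 for cotreatment compared with cisplatin (exact adjusted p = 0.0519, the same mice adjusted over the 3 comparisons). Left-out libraries gave a ratio of 0.73 to 0.85 with cisplatin, 0.32 to 0.44 for cotreatment compared with cisplatin and 0.077 to 0.20 with KW6002, and counts of 23 to 26, 18 to 25, 23 to 26 and 11 to 15 members called with cisplatin, for cotreatment compared with cisplatin, for cotreatment compared with vehicle and for the difference.

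Replicate numbers mark no shared litter or day in the labels. Deviations of 31 same-numbered pairs of mice correlated at -0.23 to 0.49 (median 0.02, over 0.1 in 8). Those of 150 differently numbered pairs correlated at -0.41 to 0.41 (median -0.0006, over 0.1 in 19). Ranges of this kind cannot decide whether the numbers pair the mice. With the replicate block 23 of 25 calls with cisplatin, 21 of 22 for cotreatment compared with cisplatin, 24 of 24 for cotreatment compared with vehicle and 11 of 14 for the difference held, and the call of Psmd5 with KW6002 was lost (0.21, adjusted p = 0.104).

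Levels per kilobase of the longest transcript had a median of 53.8 in place of 32.4, since the lengths are shorter. The order of the members changed too, with Psmb6 at rank 1 and Psma6 at rank 4. TGACNNNGC followed by A lay in 6.06% of member promoters in place of 45.5%. Depth limits Psma8, at 1 to 13 counts in a library.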
